A study of Mus musculus with 12 samples.

Results

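The genes described here are those of the mouse proteasome, taken as every row whose symbol opened with Psma, Psmb, Psmc, Psmd or Psme followed by a digit. Of 49 such symbols, 4 pseudogene symbols were left out, and Psmb11, a catalytic subunit of the thymus, was left out with 0 counts in all 12 libraries. This left 44 genes of 48795 in the table. The filter on low counts passed 43 of them, among 13812 genes tested. Psmc3ip, which has a proteasome symbol but encodes a partner in meiotic recombination and no subunit, did not pass, with 3 to 12.8 counts per mouse.

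Liver RNA was sequenced from 12 female mice, aged 4 months and kept on normal chow, to ask how the loss of neurotensin, a gut peptide hormone, bears on the fed and the fasted liver. The groups were Nts+/+ mice fed ad libitum (mice 254, 257 and 323), Nts+/+ mice fasted for 22 h (265, 282 and 322), Nts-/- mice fed ad libitum (277, 303 and 319) and Nts-/- mice fasted for 22 h (284, 290 and 295), with 3 mice each. The mice were littermates, and the Nts-/- line is described as a knockout of the whole body, not of the liver alone. All 12 libraries carry 1 batch label.

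Reads on Nts were found only in libraries labelled Nts-/-. Each of the 6 libraries labelled Nts+/+ was at 0 counts, while fed libraries labelled Nts-/- held 46, 40 and 15 reads of the gene and fasted ones 12, 4 and 18. These counts do not show which part of the gene was read, so they cannot by themselves settle the genotype, and the source of the reads was not tested. Genotypes below are therefore those of the labels, and every direction between them is the direction between libraries so labelled. The comparison of fasted with fed mice within a label does not rest on which label is which genotype. Total expected counts were between 21999647 and 45273069 per library, no pair of libraries within a group agreed within sampling noise, and the summed level of 8 hepatocyte markers was between 113190 and 150420 CPM (counts scaled to the size of the library) in every library. The switch to fasting was seen in 16 genes chosen to check it, of which 4 rose and 7 fell in Nts+/+ livers and 5 rose and 7 fell in Nts-/- livers.

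The proteasome is the main protease of the cytosol and nucleus and degrades proteins that carry ubiquitin chains. Its 20S core is a barrel of alpha subunits, which form the gated outer rings, and beta subunits, of which Psmb5, Psmb6 and Psmb7 carry the active sites. The 19S cap binds and unfolds the substrate with a ring of ATPases (Psmc genes) and with non-ATPase subunits (Psmd genes) that hold the ubiquitin receptors and a deubiquitinase. Interferon induces Psmb8, Psmb9 and Psmb10, which replace Psmb5, Psmb6 and Psmb7 in the immunoproteasome, and the activator subunits Psme1 and Psme2, and both favour peptides for presentation on MHC class I. The liver loses protein during a fast, partly through autophagy and partly through the proteasome, and the amino acids feed glucose synthesis. Nfe2l1 is a transcription factor that raises proteasome genes together through antioxidant response elements.

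Upstream sequence of 4 genes is shown first, those of Psmb5 and Psmd9 for their matches to the antioxidant response core, that of Psmd4 for 1 of the larger rises and that of Psmb9 as an immunoproteasome gene that fell. The stretches are the 150 bases before the annotated start in RefSeq on GRCm38.p6, written 5′ to 3′ on the strand of the gene. Capitals mark matches to 3 motifs searched on both strands of windows from 250 bases before to 50 bases after the start: TGACNNNGC (the core of the antioxidant response element), CCAAT (the box that nuclear factor Y binds, written ATTGG on the opposite strand) and GAAANNGAA (as in interferon-stimulated response elements). No matches overlapped in these stretches. Psmb5, an active-site subunit of the core, lay on the minus strand at chr14:54617996-54618145. Psmd4, a ubiquitin receptor, lay on the minus strand at chr3:95042615-95042764. Psmd9, an assembly chaperone, lay on the plus strand at chr5:123228040-123228189. Psmb9, the interferon-inducible counterpart of Psmb6, lay on the minus strand at chr17:34187331-34187480.
Psmb5: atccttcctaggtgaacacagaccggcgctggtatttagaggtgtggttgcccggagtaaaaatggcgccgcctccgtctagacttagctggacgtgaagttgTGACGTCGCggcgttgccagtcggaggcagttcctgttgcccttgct
Psmd4: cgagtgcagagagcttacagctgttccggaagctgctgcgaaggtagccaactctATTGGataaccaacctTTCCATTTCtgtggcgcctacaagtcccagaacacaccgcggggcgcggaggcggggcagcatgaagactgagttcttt
Psmd9: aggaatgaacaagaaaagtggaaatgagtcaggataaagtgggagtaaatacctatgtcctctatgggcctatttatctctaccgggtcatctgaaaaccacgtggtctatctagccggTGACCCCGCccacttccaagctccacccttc
Psmb9: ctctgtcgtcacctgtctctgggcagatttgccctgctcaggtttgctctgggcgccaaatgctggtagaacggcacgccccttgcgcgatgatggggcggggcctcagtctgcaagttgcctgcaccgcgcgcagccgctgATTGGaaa

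Windows were given for 37 of the 44 genes. TGACNNNGC was present in 6 of the 37 windows (16.2%, against 13.99% of 27025 genes with a window), namely those of Psmb5, Psmb6, Psmc6, Psmd9, Psmd12 and Psme4. In Psmb5 the match opened 47 bases before the start and in Psmd9 31 bases before it. CCAAT was present for 14 genes (37.8%, against 41.1%) and GAAANNGAA for 6 (16.2%, against 9.76%), namely Psmb3, Psmb4, Psmc2, Psmd4, Psmd9 and Psme1. The windows of Psmb8, Psmb9, Psmb10 and Psme2 held no match to GAAANNGAA. These are matches of letters in short windows, and binding was not measured.

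In fed Nts+/+ livers the subunits of 1 particle were not at 1 level per kb of reference transcript. Levels between genes are given as TMM-normalized CPM per kb of transcript (TMM scales libraries to each other, and lengths are those of GENCODE vM39 transcripts), as mean ± SD with n = 3. Of the alpha genes Psma6 was highest at 90.6 ± 13.1 CPM per kb and Psma2 lowest at 20.5 ± 1.23, apart from Psma8, the testis form, at 0.476 ± 0.258. Of the beta genes Psmb7 was highest at 105 ± 10.5 and Psmb2 lowest at 15.03 ± 1.91 CPM per kb. Of the ATPase genes Psmc3 was highest at 56.7 ± 1.84 and Psmc2 lowest at 30.2 ± 0.178 CPM per kb. Of the non-ATPase genes Psmd8 was highest at 72.0 ± 4.44 and Psmd14, the deubiquitinase, lowest at 18.7 ± 1.60 CPM per kb. The lowest beta genes, Psmb2 and Psmb1, have the longest reference transcripts of that list (4019 and 6002 bases). Psma2 and Psma3 have the longest of the alpha genes (3502 and 3593 bases). Before division by length Psma2 was above Psma5, at 71.6 against 52.7 CPM. Which transcript the liver uses was not measured. Neighbours in this order, such as Psmb3 at 85.7 ± 5.18 and Psmb4 at 85.2 ± 8.68 CPM per kb, often lay within their spread. Across the 31 standard subunits of the core and the cap, the SD of the log2 level per kb within a library was 0.740 in fed and 0.802 in fasted Nts+/+ livers and 0.767 and 0.815 in Nts-/- livers, as means of 3 mice.

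**Figure D1:**
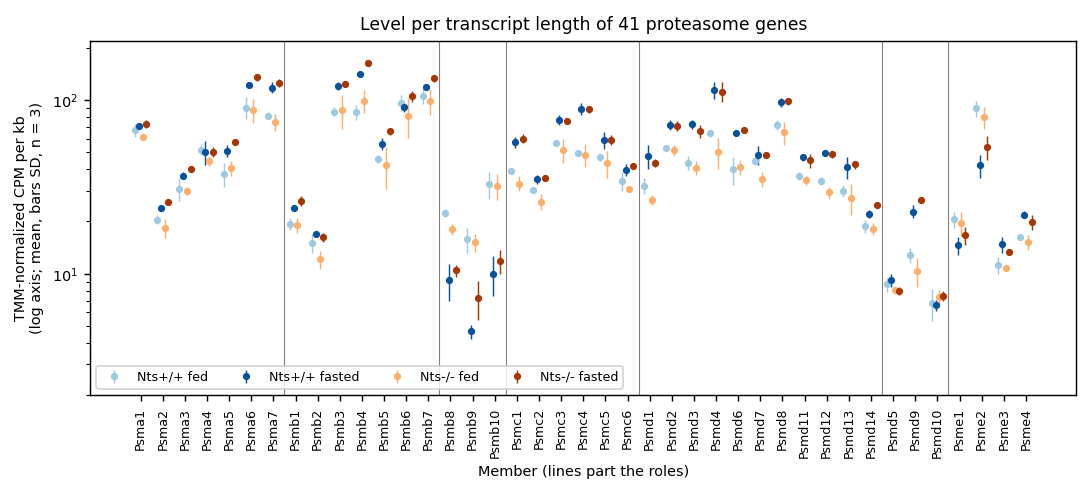
Level of 41 proteasome genes in TMM-normalized CPM per kb of transcript, on a log axis, by group (points are means and bars SD, n = 3 mice; Psma8, Psme2b and Psmc3ip, near or below 1 CPM, are left out). Dark points, the fasted groups, stand above pale ones for most core and cap genes, and below them for Psmb8, Psmb9, Psmb10 and Psme2.

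On fasting, genes of the core and the cap rose and those of the immunoproteasome fell in both genotypes. In Nts+/+ livers 19 of the 43 genes tested rose and 5 fell at an adjusted p under 0.05 (edgeR), where 8.91% of all genes tested rose and 9.19% fell. In Nts-/- livers 30 rose and 4 fell, where 7.70% of all genes rose and 9.14% fell. Of these, 18 rose and 4 fell in both genotypes, against 5.22% and 5.50% of all genes, and none moved in opposite directions. The median log2 fold change of the 43 genes was 0.31 in Nts+/+ and 0.46 in Nts-/- livers, beside -0.0032 and -0.011 over all genes tested. In both genotypes, every fasted mouse was above every fed mouse for 27 genes, where 10.2% of all genes did so, and below for 4, where 9.98% did so.

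The number that rose was lower with certain mice left out, as it was over all genes tested. None of the 58 calls in both genotypes changed direction under the alternatives run, while 4 of the 19 values below the threshold in Nts+/+ and 2 of the 9 in Nts-/- livers changed sign in at least 1 alternative. In Nts+/+ livers the number that rose was 10 without mouse 254, 12 without mouse 257 and 12 without mouse 282. Over all genes tested it went from 1231 to 629, 758 and 628 in these fits. In Nts-/- livers it was 15 without mouse 277 and 16 without mouse 303, and over all genes it went from 1063 to 633 and 750. Such fits leave 1 group with 2 mice and have less power. Calls of 13 genes stood in both genotypes under each of 20 alternatives, which included leaving out each mouse. They were Psma7, Psmb4, Psmc1, Psmc4, Psmd1, Psmd3, Psmd4, Psmd6, Psmd9 and Psmd12, which rose, and Psmb8, Psmb9 and Psmb10, which fell. Over the 43 genes the log2 fold changes of the genotypes, which share no mouse, had a Pearson r of 0.864 and a Spearman rho of 0.872, given as a description since genes of 1 library are not independent.

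**Figure D2:**
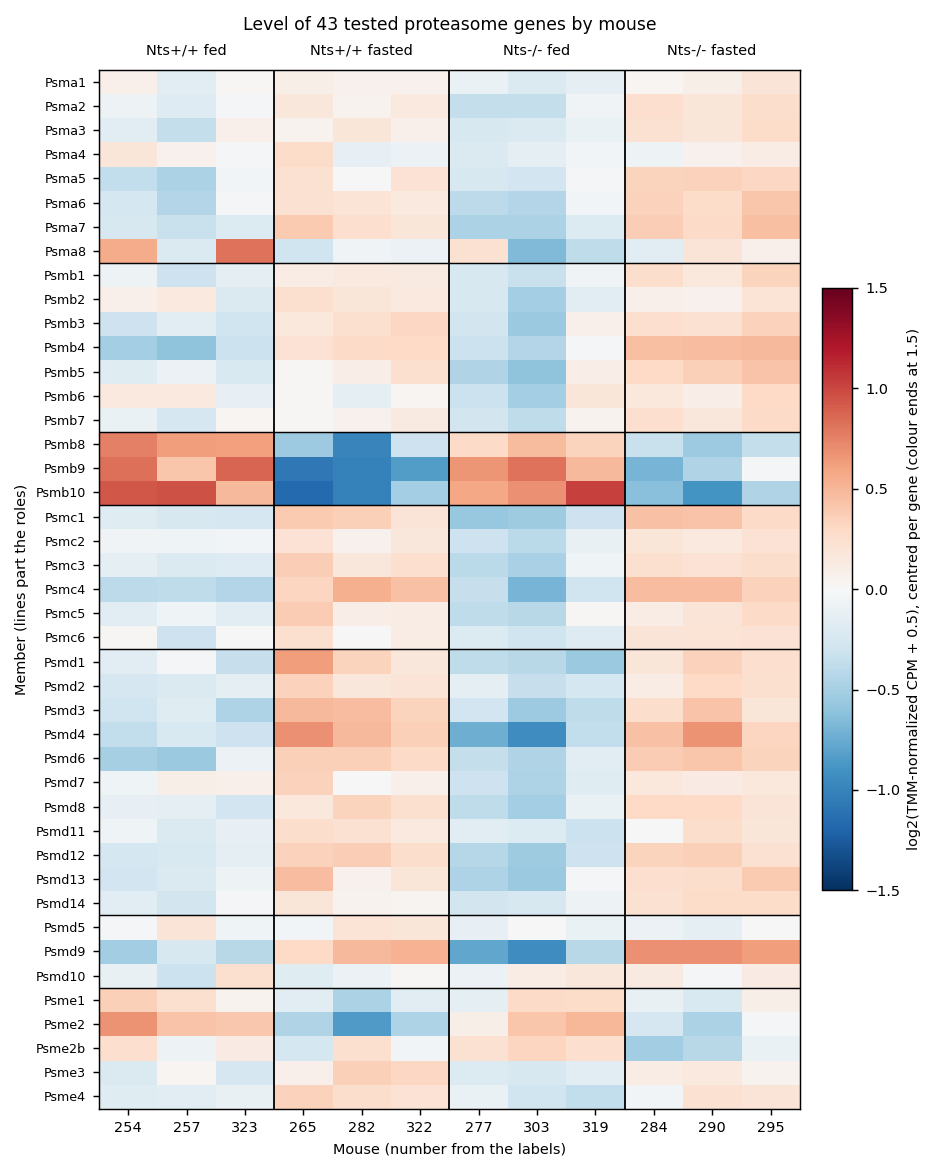
Heat map of the level of the 43 tested genes (rows, by role) in each of the 12 mice (columns, by group), as log2(TMM-normalized CPM + 0.5) centred on the mean of each gene. Fasted columns are red and fed columns blue for most core and cap genes, the reverse for Psmb8, Psmb9, Psmb10 and Psme2, and mouse 319 is the palest of the fed Nts-/- mice.

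**Figure D3:**
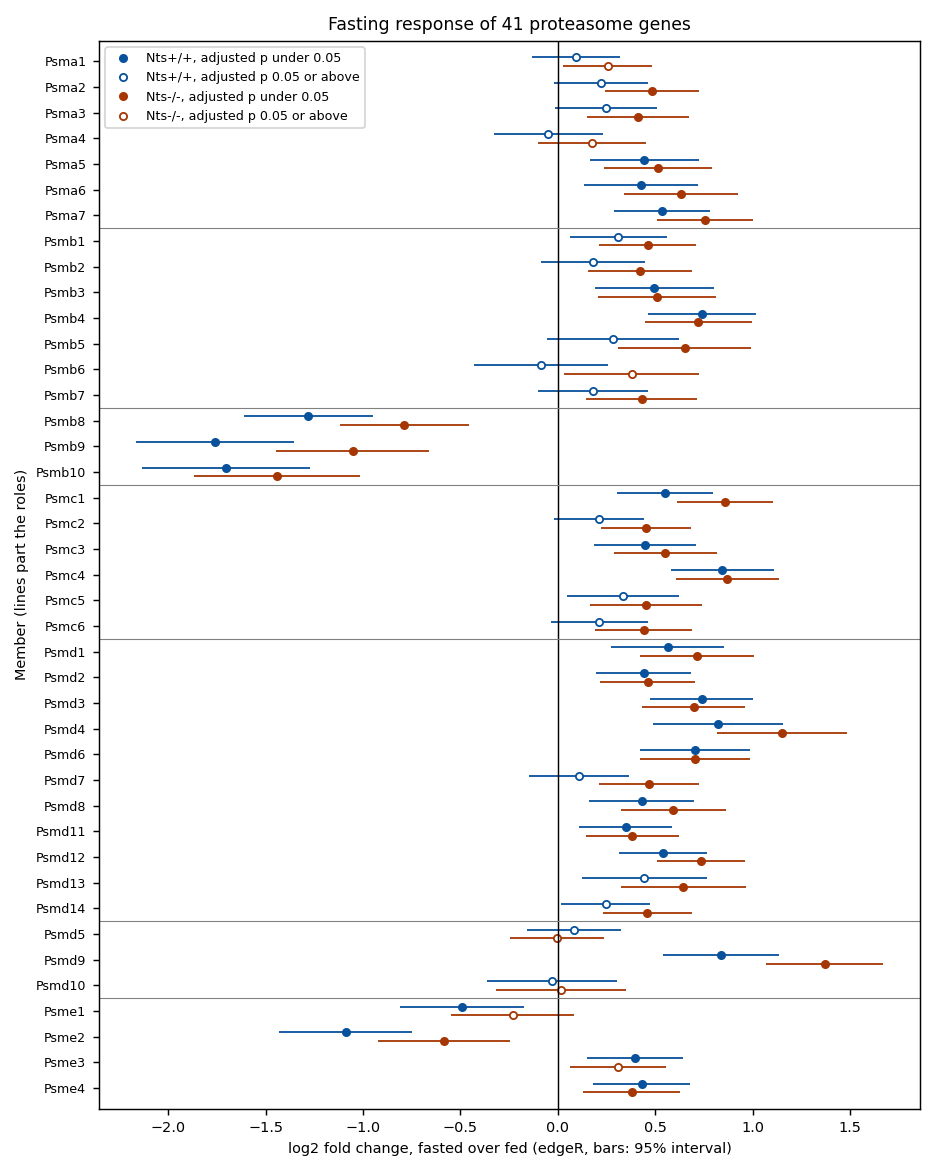
The log2 fold change of fasted over fed livers (x axis) for 41 genes by role, in Nts+/+ (blue) and Nts-/- mice (brown), with 95% intervals from edgeR; filled points have an adjusted p under 0.05. All filled points of the core and cap genes lie right of 0, and those of Psmb8, Psmb9, Psmb10, Psme1 and Psme2 lie left of it.

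The alpha subunits form the outer rings of the core. Of 8 alpha genes tested, 3 rose in Nts+/+ livers and 5 in Nts-/- livers, and none fell. Psma7 was at 78.0, 73.0 and 79.7 TMM-normalized CPM in fed Nts+/+ mice and at 120.4, 109 and 105 in fasted ones. In mice labelled Nts-/- it was at 66.1, 65.8 and 79.6 CPM when fed and 118, 113 and 126 when fasted. The fed and fasted mice did not overlap in either genotype, and the log2 fold change was 0.54 (SE 0.11, adjusted p = 0.00685) in Nts+/+ and 0.75 (SE 0.12, adjusted p = 0.000726) in Nts-/- livers. Psma5 and Psma6 rose in both genotypes, by 0.44 and 0.43 in Nts+/+ livers and by 0.51 and 0.63 in Nts-/- livers on the log2 scale. The Nts+/+ call of Psma6 was lost in 15 of 20 alternatives, among them upper-quartile scaling, both other count filters, a fit on the mice compared alone, removal of the trend with GC content and 10 of the single mice left out (adjusted p up to 0.159). That of Psma5 was lost on the mice compared alone (0.0679) and without mouse 254, 257, 265 or 322 (up to 0.120), and its Nts-/- call without mouse 277 or 303 (up to 0.0649). Psma2 and Psma3 passed the test in Nts-/- livers only, at 0.48 and 0.41, but beside 0.22 and 0.25 in Nts+/+ livers the difference did not pass (adjusted p = 0.897 and 0.921). The call of Psma2 was lost without mouse 277 (adjusted p = 0.0551), and that of Psma3 with no count filter (0.0647) and without any of 5 mice (up to 0.118). Psma1, Psma4 and Psma8 passed in neither genotype, and Psma8 was at 0.923, 0.331 and 1.20 CPM in fed and 0.285, 0.430 and 0.407 in fasted Nts+/+ livers.

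Of the 7 standard beta genes, 2 rose in Nts+/+ livers and 6 in Nts-/- livers. Psmb4, a beta subunit with no active site, was at 98.3, 92.0 and 112 CPM in fed and 163, 170.2 and 172 in fasted Nts+/+ mice. The Nts-/- mice had Psmb4 at 112, 103 and 138 CPM when fed and 192, 193 and 196 when fasted, so that all 6 fasted mice were above all 6 fed mice. It rose by 0.74 (SE 0.13, adjusted p = 0.00195) and 0.72 (SE 0.13, adjusted p = 0.00213) on the log2 scale. None of the active-site genes passed in Nts+/+ livers. Psmb5, the chymotrypsin-like subunit, was at 77.3, 82.6 and 74.9 CPM in fed and 88.3, 93.5 and 103 in fasted Nts+/+ mice, with a log2 fold change of 0.28 (adjusted p = 0.239). The Nts-/- mice had it at 64.0, 57.3 and 94.1 CPM when fed and 108, 112 and 118 when fasted, and it rose by 0.65 (adjusted p = 0.0132, and up to 0.0679 with a mouse left out), with mouse 319 at 94.1 CPM above the other fed mice. Psmb7, the trypsin-like subunit, changed by 0.18 (adjusted p = 0.370) and rose by 0.43 (adjusted p = 0.0391), a call lost in 11 of 20 alternatives, among them upper-quartile scaling, no count filter, the mice compared alone and removal of the GC trend (adjusted p up to 0.152). Psmb6, the caspase-like subunit, passed in neither genotype, at -0.086 and 0.38 on the log2 scale (adjusted p = 0.751 and 0.123). Psmb3 rose in both genotypes, by 0.49 and 0.51, and Psmb1 and Psmb2 rose in Nts-/- livers, by 0.46 and 0.42, with each of these calls lost when certain mice were left out (adjusted p up to 0.109 and 0.103 for Psmb3, 0.0707 for Psmb1 and 0.127 for Psmb2). On the mice compared alone the Nts-/- calls of Psmb3 and Psmb2 were lost too, and that of Psmb2 also with no count filter and with the GC trend removed.

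All 6 ATPase genes of the cap rose in Nts-/- livers and 3 of them, Psmc1, Psmc3 and Psmc4, in Nts+/+ livers too. Psmc4 was at 72.0, 72.9 and 69.7 CPM in fed and 119, 138 and 129 in fasted Nts+/+ mice. In Nts-/- mice it was at 74.5, 58.2 and 76.8 CPM when fed and 131, 131 and 121 when fasted. No fed mouse reached the lowest fasted mouse, and Psmc4 rose 1.80-fold in Nts+/+ (log2 0.84, SE 0.12, adjusted p = 0.000611) and 1.83-fold in Nts-/- livers (log2 0.87, SE 0.12, adjusted p = 0.000415). Psmc1 was at 106, 102 and 100.9 CPM in fed and 159, 155 and 137 in fasted Nts+/+ mice, and at 81.1, 82.8 and 96.9 and 164, 162 and 147 in Nts-/- mice. Here too the groups did not overlap, and the log2 fold change was 0.55 (adjusted p = 0.00591) and 0.86 (adjusted p = 0.000291). Psmc3 rose by 0.45 (adjusted p = 0.0228, up to 0.0722 with a mouse left out) and 0.55 (adjusted p = 0.00836). Psmc2, Psmc5 and Psmc6 rose in Nts-/- livers by 0.45, 0.45 and 0.44, beside 0.21, 0.33 and 0.21 in Nts+/+ livers, and these calls had adjusted p up to 0.0586, 0.142 and 0.0676 with a mouse left out. The call of Psmc5 was lost on the mice compared alone too (adjusted p = 0.0730).

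Of the 11 non-ATPase genes of the cap, 8 rose in Nts+/+ livers and all 11 in Nts-/- livers. Psmd4, which binds ubiquitin chains, was at 82.1, 90.3 and 85.6 CPM in fed and 171, 149 and 136 in fasted Nts+/+ mice. In Nts-/- mice it was at 63.6, 55.5 and 82.4 CPM when fed and 144, 171 and 133 when fasted. All fasted mice were above all fed mice, with a rise of 1.77-fold (log2 0.82, SE 0.15, adjusted p = 0.00317) and 2.22-fold (log2 1.15, SE 0.16, adjusted p = 0.000307). Psmd3, of the lid that removes ubiquitin, was at 95.3, 103 and 84.9 and 164, 161 and 147 CPM in fed and fasted Nts+/+ mice and at 95.9, 79.9 and 89.7 and 141, 157 and 132 in Nts-/- mice. It rose without overlap by 0.74 (adjusted p = 0.00145) and 0.70 (adjusted p = 0.00195). Psmd6, also of the lid, was at 50.4, 48.4 and 67.0 and 91.5, 91.3 and 87.0 CPM in fed and fasted Nts+/+ mice and at 55.5, 52.3 and 63.3 and 92.9, 95.5 and 90.3 in Nts-/- mice. It rose by 0.70 (adjusted p = 0.00301) and 0.70 (adjusted p = 0.00288), again without overlap.

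Psmd1, a scaffold of the base, rose by 0.56 (adjusted p = 0.0118) and 0.71 (adjusted p = 0.00326), and Psmd12, of the lid, by 0.54 (adjusted p = 0.00382) and 0.73 (adjusted p = 0.000460). Psmd2, the scaffold that receives shuttle factors, was at 155, 159 and 167 and 234, 208 and 211 CPM in fed and fasted Nts+/+ mice and rose by 0.44 and, in Nts-/- livers, by 0.46. Its calls were lost without mouse 254 or 257 in Nts+/+ livers and without mouse 290 or 303 in Nts-/- livers (adjusted p up to 0.0738 and 0.0566). Psmd8 rose by 0.43 and 0.59 and Psmd11 by 0.35 and 0.38, with adjusted p up to 0.128 for Psmd8 in Nts+/+ livers, and up to 0.137 and 0.119 for Psmd11, when a mouse was left out. Psmd8 also missed the threshold in Nts+/+ livers under upper-quartile scaling (adjusted p = 0.0508). The Nts+/+ call of Psmd11 was lost in 13 of 20 alternatives, among them upper-quartile scaling, both other count filters and the mice compared alone, and its Nts-/- call in 7, among them no count filter and the mice compared alone. Psmd7, Psmd13 and Psmd14 rose in Nts-/- livers by 0.47, 0.64 and 0.46, beside 0.11, 0.44 and 0.24 in Nts+/+ livers (adjusted p = 0.566, 0.0538 and 0.127). Psmd7 and Psmd14 form the deubiquitinase pair of the lid. Without mouse 277 the adjusted p of Psmd13 and Psmd14 was 0.0536 and 0.0510, and that of Psmd7 reached 0.0719 with a mouse left out.

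Summed over the 31 standard subunits, the level was 2744, 2661 and 2772 CPM in fed and 3737, 3536 and 3502 CPM in fasted Nts+/+ mice. In Nts-/- mice it was 2456, 2286 and 2799 CPM when fed and 3654, 3742 and 3751 CPM when fasted. The lowest fasted mouse was above the highest fed mouse of either genotype. The means were 2726 ± 58.0 and 3591 ± 127 CPM (SD, n = 3) in Nts+/+ and 2514 ± 261 and 3716 ± 53.7 CPM (SD, n = 3) in Nts-/- livers. By test, 16 of the 31 rose in Nts+/+ and 28 in Nts-/- livers, where 8.91% and 7.70% of all genes tested rose. None of the 31 fell, and the median log2 fold change was 0.43 and 0.51. The difference of the responses between the labels passed for 0 of the 31. These values are RNA levels, and neither subunit protein nor protease activity was measured.

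Of the 3 chaperones that assemble the base of the cap and carry Psmd symbols, Psmd9 rose in both genotypes and the others passed in neither. Psmd9 was at 30.2, 36.9 and 32.5 CPM in fed and 53.6, 61.2 and 63.0 in fasted Nts+/+ mice, and at 25.2, 22.7 and 32.7 and 70.3, 70.2 and 67.5 in Nts-/- mice. The groups did not overlap, and the rise was 1.79-fold (log2 0.84, SE 0.14, adjusted p = 0.00141) in Nts+/+ and 2.58-fold (log2 1.37, SE 0.14, adjusted p = 5.16e-05) in Nts-/- livers. The locus of Psmd9 overlaps that of Hpd, an abundant liver enzyme of tyrosine breakdown, and the strand of the libraries is not stated. Psmd9 had fractional counts in 0 of 12 libraries, so its counts show no reads split with another gene. Whether reads of Hpd were counted for Psmd9 was not tested. Hpd itself changed by 0.30 (adjusted p = 0.377) and 0.41 (adjusted p = 0.224). Psmd5 changed by 0.083 and -0.0067 and Psmd10, also called gankyrin, by -0.031 and 0.016 on the log2 scale, with adjusted p of at least 0.650.

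The activators moved in both directions. Psme4, the large nuclear activator that opens the core without ubiquitin, was at 103, 105 and 108 CPM in fed and 149, 141 and 136 in fasted Nts+/+ mice, and at 109.5, 95.3 and 90.8 and 114, 137 and 133 in Nts-/- mice. It rose without overlap by 0.43 (adjusted p = 0.0217, up to 0.0829 with a mouse left out) and 0.38 (adjusted p = 0.0390, up to 0.133), and the Nts-/- call was lost with no count filter and on the mice compared alone too. Psme3, a nuclear relative of Psme1, rose in Nts+/+ livers by 0.40 (adjusted p = 0.0288, up to 0.129, and lost with no count filter and on the mice compared alone) and changed by 0.31 in Nts-/- livers (adjusted p = 0.0799). Psme2 was at 97.01, 81.8 and 80.9 CPM in fed and 44.4, 33.6 and 44.0 in fasted Nts+/+ mice, and at 64.7, 81.5 and 86.1 and 51.2, 43.6 and 60.1 in Nts-/- mice. It fell in both, with a log2 fold change of -1.09 (SE 0.16, adjusted p = 0.000647) in Nts+/+ and -0.58 (SE 0.16, adjusted p = 0.0223, up to 0.102 with a mouse left out) in Nts-/- livers, and no fasted mouse reached a fed mouse of its genotype. Psme1, its partner in the ring, was at 95.3, 88.1 and 77.0 CPM in fed and 65.9, 53.1 and 65.9 in fasted Nts+/+ mice and fell there (log2 -0.49, adjusted p = 0.0339, up to 0.159). In Nts-/- mice Psme1 was at 67.5, 90.6 and 89.6 CPM when fed and 68.4, 63.3 and 79.0 when fasted, where the groups overlapped (log2 -0.23, adjusted p = 0.308). Psme2b, a near copy of Psme2 at or under 1.05 CPM, has fractional counts in all 12 libraries, as Psme2 does, and passed in neither genotype.

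All 3 immunoproteasome genes fell in both genotypes. Psmb8 was at 40.4, 36.9 and 36.7 CPM in fed and 16.1, 11.7 and 19.1 in fasted Nts+/+ mice, and at 29.0, 33.1 and 30.1 and 18.7, 16.2 and 18.4 in Nts-/- mice. Its log2 fold change was -1.28 (SE 0.15, adjusted p = 0.000180) and -0.79 (SE 0.15, adjusted p = 0.00383). Psmb9 was at 23.1, 17.3 and 23.8 CPM in fed and 5.84, 6.11 and 6.95 in fasted Nts+/+ mice, and at 20.6, 23.0 and 18.1 and 7.71, 9.25 and 12.5 in Nts-/- mice. Its log2 fold change was -1.76 (SE 0.19, adjusted p = 0.000115) and -1.05 (SE 0.18, adjusted p = 0.00178). Psmb10 was at 46.9, 47.7 and 34.3 CPM in fed and 10.6, 11.8 and 16.98 in fasted Nts+/+ mice, and at 36.8, 39.6 and 50.4 and 15.7, 12.9 and 17.8 in Nts-/- mice. Its log2 fold change was -1.70 (SE 0.20, adjusted p = 0.000158) and -1.44 (SE 0.20, adjusted p = 0.000361). Fed and fasted mice did not overlap for any of the 3 genes in either genotype. The locus of Psmb9 overlaps that of Tap1, which fell as well (log2 -0.54 and -0.51). Psmb9 had fractional counts in 11 of 12 libraries, and which gene shared its reads was not tested.

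Set against its standard counterpart on the scale of CPM per kb, each immunoproteasome gene was lower in every fasted mouse than in any fed mouse. Psmb8 per 100 Psmb5 was 52.2, 44.7 and 48.9 in fed and 18.2, 12.5 and 18.5 in fasted Nts+/+ mice, and 45.3, 57.7 and 31.9 against 17.4, 14.4 and 15.7 in Nts-/- mice. Psmb9 per 100 Psmb6 went from 16.6 ± 4.06 to 5.11 ± 0.462 in Nts+/+ and from 19.8 ± 6.71 to 6.84 ± 1.29 in Nts-/- mice (SD, n = 3). Psmb10 per 100 Psmb7 went from 31.7 ± 8.16 to 8.36 ± 1.78 and from 32.5 ± 2.38 to 8.81 ± 1.02 (SD, n = 3). For all 3 pairs the lowest fed mouse was above the highest fasted mouse of either genotype. Psmb5 and Psmb7 had fractional counts in all 12 libraries, and the locus of Psmb7 overlaps that of Nek6. Summed with Psme1 and Psme2, the immunoproteasome genes were at 276 ± 25.3 CPM in fed and 137 ± 18.9 CPM in fasted Nts+/+ mice, and at 254 ± 30.5 and 165 ± 21.5 CPM in Nts-/- mice (SD, n = 3).

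**Figure D4:**
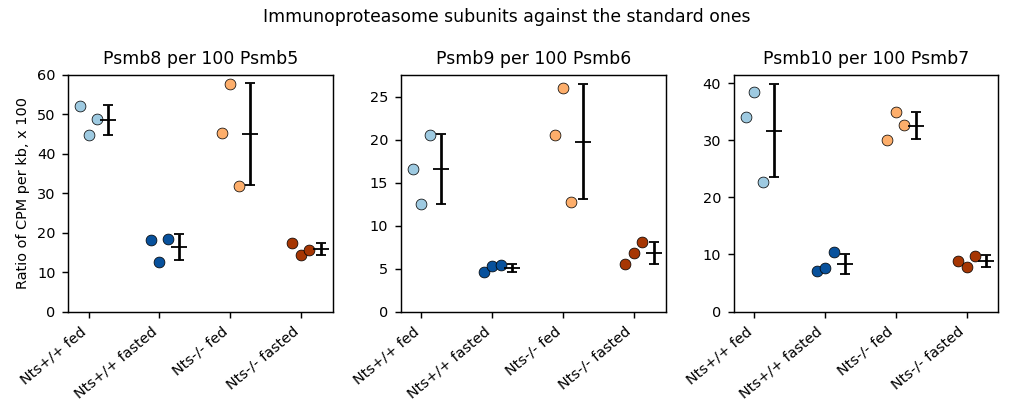
Ratio of each immunoproteasome gene to the standard gene it replaces, as CPM per kb times 100, in each mouse (points) with the mean and SD of each group (bars, n = 3). Psmb8 per 100 Psmb5 lies between 31.9 and 57.7 in fed and between 12.5 and 18.5 in fasted mice.

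Markers of other cell types are set beside these genes. For comparison, 8.91% of all genes tested rose and 9.19% fell in Nts+/+ livers, and 7.70% rose and 9.14% fell in Nts-/- livers. The 8 markers of Kupffer cells and macrophages summed to between 610 and 728 CPM in fed and between 315 and 518 CPM in fasted Nts+/+ mice, but to between 376 and 532 and between 379 and 616 CPM in Nts-/- mice, where the groups overlapped. Of the 8, Clec4f fell in Nts+/+ livers (-0.86, adjusted p = 0.00569) and none passed in Nts-/- livers. The 8 markers of T cells and NK cells summed to between 17.4 and 18.9 CPM in fed and between 11.0 and 12.9 CPM in fasted Nts+/+ mice, and to between 15.5 and 16.6 and between 11.5 and 22.4 CPM in Nts-/- mice, and Gzma fell in Nts+/+ livers (-1.45, adjusted p = 0.0236) while none passed in Nts-/- livers. The 4 MHC class II genes summed to between 237 and 311 CPM in fed and between 105 and 209 CPM in fasted Nts+/+ mice. In Nts-/- mice they summed to between 181 and 294 against between 135 and 162 CPM. Fed and fasted sums did not overlap in either genotype. By test 4 of 4 fell in Nts+/+ livers and none passed in Nts-/- livers, where all 4 were below 0 (median log2 fold change -0.63). The 6 markers of B cells and plasma cells summed to between 17.6 and 26.6 against between 14.3 and 31.2 CPM and to between 25.3 and 36.1 against between 21.1 and 30.8 CPM, and none passed. The 4 markers of dendritic cells summed to at most 3.02 CPM in any mouse, and none of the 3 tested passed.

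Summed markers of sinusoidal endothelium and of cholangiocytes were also lower in every fasted mouse than in any fed mouse of its genotype. The 6 markers of sinusoidal endothelium summed to between 142 and 207 against between 128 and 133 CPM in Nts+/+ mice and to between 166 and 186 against between 121 and 146 CPM in Nts-/- mice, with 1 higher and 1 lower by test in Nts+/+ and 2 lower in Nts-/- livers. The 5 markers of cholangiocytes, the cells of bile ducts, summed to between 34.0 and 49.7 against between 13.7 and 26.2 CPM and to between 33.4 and 35.7 against between 15.1 and 29.6 CPM, and 1 of 4 tested fell in each genotype. The 6 markers of stellate cells summed to between 227 and 249.1 against between 185 and 209 CPM and, with overlap, to between 196 and 273 against between 190 and 205 CPM, and 2 fell in Nts+/+ and 4 in Nts-/- livers. The 4 erythroid markers overlapped in both genotypes, and 1 of 3 tested fell in Nts-/- livers. No marker of these lists was at 0 in all mice. Of the 8 hepatocyte markers, 3 rose and 1 fell by test in each genotype, with medians of 0.37 in Nts+/+ and 0.25 in Nts-/- livers. In RNA of whole liver, fewer cells of a type and less RNA per cell cannot be told apart. The part of cell composition in the fall of the immunoproteasome genes and in the rise of core and cap genes was not tested.

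Other genes that interferon induces were lower as well. Of 20 interferon response genes, 16 fell in Nts+/+ and 13 in Nts-/- livers and none rose, with medians of -1.18 and -0.88. Over all genes tested, 9.19% fell in Nts+/+ and 9.14% in Nts-/- livers. Gbp6, a guanylate-binding protein, had log2 fold changes of -2.73 and -2.38 in Nts+/+ and Nts-/- livers. Igtp, a GTPase that interferon induces, had -1.60 and -1.45, and Iigp1, of the same family, -1.18 and -0.87. Irf1, a transcription factor that drives Psmb9, had -1.25 and -0.75. Of 12 genes of MHC class I presentation, 5 fell in Nts+/+ and 4 in Nts-/- livers. Tap2, which forms the peptide transporter with Tap1, had log2 fold changes of -0.84 and -0.60, and Tapbp, which links it to class I, had -0.77 and -0.88. The heavy chains H2-K1 and H2-D1 did not pass, at -0.062 and 0.012 in Nts+/+ livers and 0.13 and 0.30 in Nts-/- livers.

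Partners of the standard proteasome were read from a list of their own. Of 15 tested partners without a Psma to Psme symbol, 6 rose and 1 fell in Nts+/+ livers and 5 rose in Nts-/- livers. Over all genes tested, 8.91% rose and 9.19% fell in Nts+/+ livers, and 7.70% rose and 9.14% fell in Nts-/- livers. Adrm1, another ubiquitin receptor of the cap, rose by 0.60 (adjusted p = 0.00858) and 0.74 (adjusted p = 0.00262), and Zfand2a, a stress-induced cap partner, by 0.73 and 0.78. Psmf1, named as an inhibitor of the core, rose by 0.56 and 0.35, and Txnl1, a thioredoxin bound to the cap, by 0.37 and 0.37. Shfm1, a small lid subunit, was the 1 that fell (-0.50 in Nts+/+ livers, adjusted p = 0.0475). Pomp, the chaperone of core assembly, and Psmg1, Psmg2, Psmg3 and Psmg4, which pair the alpha subunits, did not pass in either genotype, with Pomp at -0.30 and 0.15. Of 10 tested shuttle factors and genes of p97, the segregase that pulls ubiquitinated proteins from complexes, 5 rose in Nts+/+ and 6 in Nts-/- livers. Vcp, which is p97, rose by 0.51 and 0.52, and its cofactors Ufd1l and Nploc4 by 0.60 and 0.59 in Nts+/+ and 0.52 and 0.49 in Nts-/- livers.

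Of 7 genes of ubiquitin and its activating enzymes, Ubb rose in Nts-/- livers (0.64, adjusted p = 0.0203), and Uba7, which activates the interferon-induced modifier Isg15, fell in both genotypes (log2 -1.89 and -1.71). Of 12 tested regulators of proteasome genes, Foxo4 fell in Nts+/+ livers (-0.45) and Ngly1, which activates Nfe2l1, rose in Nts-/- livers (0.37). Calls of 1 gene in 12 are near the share over all genes tested, of which 9.19% fell in Nts+/+ and 7.70% rose in Nts-/- livers. The RNA of Nfe2l1 itself did not pass, at 0.12 (adjusted p = 0.488) and 0.31 (adjusted p = 0.0779). Of 5 tested ubiquitin ligases known from fasting muscle, Fbxo31 rose by 1.37 and 1.35 and Mdm2 in Nts+/+ livers by 0.54, while Fbxo32, also called atrogin-1, changed by 0.14 and 0.074 without passing.

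**Figure D5:**
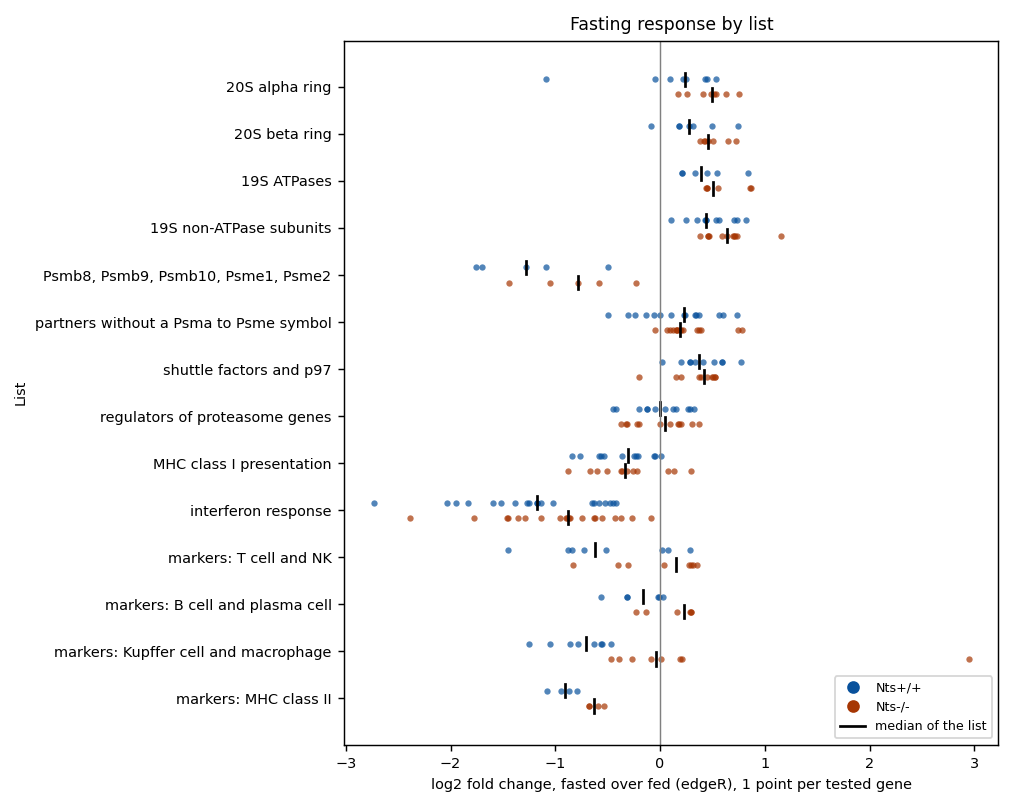
The log2 fold change of fasted over fed livers for each tested gene of 14 lists (points, blue Nts+/+ and brown Nts-/-), with the median of each list as a black bar. The medians of the core and cap lists lie right of 0, and those of the 5 immunoproteasome and activator genes (-1.28 and -0.79) and of the interferon response genes (-1.18 and -0.88) lie left of it.

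Between the genotype labels no proteasome gene passed. In fed livers 0 of 43 genes did, as did 0.00% of all genes in edgeR's test (876 of 13812 had an unadjusted p under 0.05), and the Wald test of DESeq2 called 1 gene higher and 7 lower, of which 0 were proteasome genes. The median log2 difference, Nts-/- minus Nts+/+, was -0.12 over the 43 genes and 0.010 over all genes. The median over the 43 was -0.20 without mouse 319. Of the 43, 37 were below 0, beside 6651 of all 13812. Psmd7 had the smallest p, at 67.2, 74.5 and 74.1 CPM in fed Nts+/+ and 56.3, 50.7 and 61.6 in fed Nts-/- mice, without overlap (log2 -0.36, 95% interval -0.61 to -0.10, adjusted p = 0.734). Psmb2 and Psmd4 followed, at -0.31 and -0.36 (adjusted p = 0.749 and 0.768), and Psma8, at few counts, had the largest difference (-1.22, 95% interval -2.43 to -0.02). In fasted livers 0 of 43 passed, beside 0.00% of all genes (685 had an unadjusted p under 0.05, and DESeq2 called 1 gene higher and 3 lower, 0 of them proteasome genes), and the median was 0.057, which was 0.10 without mouse 265, 0.032 without mouse 322 and 0.020 with the trend with transcript length removed. Psmb9 had the smallest p, at 5.84, 6.11 and 6.95 CPM in fasted Nts+/+ and 7.71, 9.25 and 12.5 in fasted Nts-/- mice, without overlap (log2 0.65, 95% interval 0.25 to 1.05, adjusted p = 0.917). Psme2 (0.34) and Psmd5 (-0.20) followed, both with an adjusted p of 0.917, and Psme2b was at -0.55 (95% interval -1.28 to 0.19). Psma8, at few counts, was at 0.39 (95% interval -0.84 to 1.63).

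The fasting response, too, was not shown to differ between the labels. No gene passed the test of the difference of the responses (0 of 43, and 0.00% of all genes, with 663 at an unadjusted p under 0.05, and 3 called higher by DESeq2, 0 of them proteasome genes). The difference, Nts-/- response minus Nts+/+ response, was above 0 for 37 of the 43 genes, beside 6504 of all 13812. It uses the same fed mice as the comparison of labels in fed livers, and genes of 1 library are not independent. The counts of genes on 1 side of 0 in the 2 comparisons are therefore not separate results. The median difference was 0.20 over the 43 genes and -0.020 over all genes. With the trend with transcript length removed the median was 0.12. In at least 1 alternative 12 of the 43 differences changed sign, as did 15 of those between labels in fed and 16 in fasted livers. Psmd9 (0.53, 95% interval 0.11 to 0.95) and Psmb9 (0.71, 95% interval 0.15 to 1.26) had the smallest p, with an adjusted p of 0.897 each. Psmb8 followed, at 0.49 (95% interval 0.029 to 0.96). The largest differences were those of Psma8 (1.62, 95% interval -0.11 to 3.34) and Psme2b (-0.79), both at few counts. Where the estimate lay near 0 the interval was still wide beside the response itself, as for Psmc4 (0.026, 95% interval -0.34 to 0.40) and Psmd6 (0.0019, 95% interval -0.40 to 0.40). The 12 genes that rose by the test in Nts-/- livers only are therefore not shown to respond differently.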

How the data were processed

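The authors deposited 1 table of expected counts, which are estimated read numbers, may be fractional and are not scaled between libraries, with GRCm38 positions for 48795 genes. The submitters' processing notes name Trimmomatic, RSEM and GRCm38. Versions, the aligner, the gene annotation and the strand of the libraries are not given in the sources used here. The table has 1 count column for each of the 12 mice and 0 columns beyond these. Of the proteasome genes, 10 overlap another gene and 15 have fractional counts, so reads can be split between copies.

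Expected counts were rounded. In R 4.3.3, edgeR 4.0.16 (filterByExpr, TMM, robust quasi-likelihood test, 1 model of 4 group means over 12 mice) tested 13812 genes, and p-values were adjusted by Benjamini-Hochberg over all of them, with a threshold of 0.05. The biological coefficient of variation was 0.202. A floor of 3 counts was 0.0663 to 0.136 CPM, which covers counting error only. The mice are separate animals. Standard errors and 95% intervals come from the quasi-likelihood fit. Lengths came from GENCODE vM39 by Ensembl identifier, with a value for 99.2% of tested genes and all 44 proteasome genes. Promoter windows are RefSeq sequences on GRCm38.p6.

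Genes named are those past the threshold, those with the smallest p or largest change in each comparison, the catalytic pairs, Psme1, Psme2 and the extremes of level per role; up to 4 genes of each other list past the threshold are named. Pomp, Psmg1, Psmg2, Psmg3, Psmg4, H2-K1, H2-D1, Nfe2l1, Fbxo32 and the marker genes were named after their values were seen. The genes, lists and tests were chosen with earlier results of these data known. Alternatives were RLE and upper-quartile scaling, DESeq2 1.42.0, other count filters, only the mice compared, removal of trends with transcript length or GC content, a threshold of 0.10, and leaving out each mouse. Only the edgeR fit, on a single comparison, was tested on simulated counts, with known changes larger than most seen in the proteasome genes. The other steps were not tested in this way.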

Additional observations from a re-analysis of the deposited data

How the results depend on the processing

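When any single mouse was left out, the number of proteasome genes that rose on fasting was between 10 and 21 in Nts+/+ livers, against 19 with all mice, and between 15 and 30 in Nts-/- livers, against 30. The lowest counts came without mice 254 (10), 257 (12) and 282 (12), and without mice 277 (15) and 303 (16). Such a fit leaves 1 group with 2 mice and has less power by its construction. The median difference between the labels in fed livers was between -0.20 (without mouse 319) and -0.079, against -0.12. Over the other alternatives the number that rose was between 15 and 21 in Nts+/+ and between 24 and 32 in Nts-/- livers, and the number that fell was 5 and between 4 and 5. The counts between labels were 0 under every alternative run. In fasted livers that median was between 0.032 and 0.10 with a mouse left out and 0.020 with the length trend removed, against 0.057, and the median difference of the responses was 0.12 with the length trend removed, against 0.20. Of the 1160 alternative values of the 58 calls, 143 fell short of the threshold and 0 changed sign. Of the 3087 alternative values of genes below the threshold, 12 passed it and 134 changed sign, in 49 of 157 cases, each at most 0.178 from 0 on the log2 scale. No paired analysis was possible because the mice of different groups share no number and litters are not given. Depth limits what can be said of Psma8, Psme2b and Psmc3ip, which were near or below 1 CPM.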
